A study of Mus musculus with 8 samples.

Results

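The developing mouse testis was followed from embryonic day E12.5 to E14.5 on 4 Affymetrix MG_U74Av2 expression arrays out of the 8 in the series. These 4 arrays, chosen by their labels alone, hold gonads of XY embryos: wild type (WT) at E12.5, Wnt4 knock-out (KO) at E12.5, WT at E14.5 and Wnt4 KO at E14.5. Each combination of genotype and stage had 1 array, so the stage difference, E14.5 minus E12.5, was taken once in the WT testis and once in the KO testis, and the 2 genotypes served as repeats. The other 4 arrays hold ovaries of the same genotypes and stages and were used for comparison. Whole gonads were profiled, from embryos staged by their morphology and genotyped by PCR. The labels name the KO only as a Wnt4 knock-out, so its allele and the number of gonads behind each array were not known here. Values are log2 signals centred on the array median, differences are log2 differences, and errors are standard errors (SE) of a linear model over all 8 arrays (limma), unless a single pair of arrays is named.

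By E12.5 the XY gonad has formed cords of Sertoli cells around the germ cells. Over the next days fetal Leydig cells appear between the cords and begin to make androgens, the male germ cells leave their pluripotent, dividing state and stop dividing, and vessels and muscle-like cells settle around the cords. Androgen synthesis starts when Star moves cholesterol into mitochondria and Cyp11a1 cuts its side chain. Hsd3b1 and Cyp17a1 then turn the product into androstenedione, which in the fetal testis is made into testosterone largely in Sertoli cells, by Hsd17b3. Nr5a1, the nuclear receptor that drives many of these genes, binds DNA at sites built around AGGTCA.

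The promoters of 4 genes are printed as examples of opposite movements described below, a pair of steroidogenic genes that rose and a pair of embryonic globin genes that fell. Cyp17a1 was not matched in the promoter table used. They are RefSeq windows on GRCm38.p6 from 250 bases before to 50 bases after the start of each gene. Capitals mark AGGTCA in the steroidogenic pair, and CACCC and CCAAT, letters found in many globin promoters, in the globin pair. Both strands were searched.
Hsd3b1, chr3:98859745-98860044, minus strand: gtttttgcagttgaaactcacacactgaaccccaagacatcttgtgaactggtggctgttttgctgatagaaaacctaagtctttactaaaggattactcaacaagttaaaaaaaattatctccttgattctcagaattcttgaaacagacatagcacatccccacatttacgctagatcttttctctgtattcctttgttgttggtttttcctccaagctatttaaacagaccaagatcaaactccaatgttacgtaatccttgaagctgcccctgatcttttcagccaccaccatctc
Cyp11a1, chr9:58014702-58015001, plus strand: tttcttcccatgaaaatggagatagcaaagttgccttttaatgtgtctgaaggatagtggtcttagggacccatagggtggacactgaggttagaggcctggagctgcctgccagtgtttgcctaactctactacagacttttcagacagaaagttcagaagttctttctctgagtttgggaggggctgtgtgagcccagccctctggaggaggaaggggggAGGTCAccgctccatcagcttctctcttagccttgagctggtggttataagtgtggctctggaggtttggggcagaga
Hba-x, chr11:32276350-32276649, plus strand: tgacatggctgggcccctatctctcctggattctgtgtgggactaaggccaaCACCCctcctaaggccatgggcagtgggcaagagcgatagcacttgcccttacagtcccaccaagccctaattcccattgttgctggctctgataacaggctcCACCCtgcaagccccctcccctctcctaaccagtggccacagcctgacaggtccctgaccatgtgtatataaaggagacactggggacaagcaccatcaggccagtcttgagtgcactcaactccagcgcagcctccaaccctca
Hbb-y, chr7:103853158-103853457, minus strand: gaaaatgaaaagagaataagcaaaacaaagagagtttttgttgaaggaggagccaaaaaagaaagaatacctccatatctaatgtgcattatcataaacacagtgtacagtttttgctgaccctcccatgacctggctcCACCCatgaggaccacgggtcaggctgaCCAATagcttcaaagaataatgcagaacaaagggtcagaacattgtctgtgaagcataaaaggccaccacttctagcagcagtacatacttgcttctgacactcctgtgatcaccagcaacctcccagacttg
AGGTCA began 28 bases before the start in the printed window of Cyp11a1, 1 of 2 listed for this gene, and these letters were not in the other window or in that of Hsd3b1. CACCC began 198 and 95 bases before the start of Hba-x and 111 before that of Hbb-y, where CCAAT began 83 bases before it. Of all 32851 promoter windows of this length, 16.3% held AGGTCA, 57.5% CACCC and 37.4% CCAAT, so each of these matches is a description of the sequence and marks no known site.

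The sex of the arrays was checked first. Xist, the RNA of the inactive X chromosome, lay between 4.07 and 4.79 on the 4 testis arrays and between 7.10 and 8.13 on the ovary arrays. The Y-linked gene Eif2s3y was at 7.77 (WT) and 8.12 (KO) in the E12.5 testis and at 7.54 and 6.91 in the E14.5 testis. Against its label, the WT ovary array of E14.5 had Eif2s3y at 7.63, and it enters every ovary value and every testis minus ovary difference below. For the steroidogenic genes, Cited1 and the muscle and matrix genes the KO ovary pair is also given alone; for the other genes the part of this array was not tested. The KO testis array of E14.5 carried meiotic and ovarian transcripts above the WT array of that stage: Stra8, which starts meiosis, was at 7.44 against 5.70, Sycp1 at 6.28 against 5.44, and Kitl at 7.65 against 6.23. Over the 9 probe sets of the meiosis list the mean level was 6.42 in the KO and 5.99 in the WT testis at E14.5, and 5.37 (WT) and 5.34 (KO) at E12.5. The part of this in the smaller KO rises of testis genes was not tested.

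Both E14.5 testis arrays stood apart from the rest as whole arrays. They correlated with each other at r = 0.996 over probe sets, as the E12.5 testis pair did at 0.997, but with the other 6 arrays at only 0.884 to 0.908, while those 6 correlated with each other at 0.979 or more. Their deposited medians were 7.08 and 7.04, against 7.85 and 7.83 at E12.5. Array and stage cannot be told apart here, since every E14.5 testis value comes from these arrays. The spread of the stage difference over probe sets had an SD of 0.81 in the testis and 0.28 in the ovary.

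With this background, 80.3% of the 8230 probe sets fitted differed between the stages at an adjusted p under 0.05, so passing the test says little about a single gene. A gene was called higher or lower only where every fitted probe set of it passed in 1 direction. Of 6211 genes, 2146 (34.6%) were called higher and 2389 (38.5%) lower. A size threshold was therefore set beside the test: 277 genes (4.46%) were at least 2-fold higher and 682 (11%) at least 2-fold lower in both genotypes, on every fitted probe set. This split depends on the centring. With values as deposited the median probe set fell by 0.71 on the log2 scale, 451 genes were called higher and 4661 lower, and 7 were 2-fold higher and 1869 lower. Quantile normalization gave 369 genes 2-fold higher and 580 lower. Of 100 named genes measured with values as deposited, 58 had a change that differed by over 1.5 times from the one given below, and those that lost their call are named beside their results.

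Probe sets of 1 gene often went different ways. Of the 1040 genes with several fitted probe sets, 424 (40.8%) had sets with opposite signs. Exactly 2 sets were fitted for 901 genes, of which 350 had opposite signs. Across those 901 genes, which share the arrays and are not independent, the change on one set correlated with that on the other at r = 0.317. Of 147 such genes with at least 1 set 2-fold higher in both genotypes, 11 had all sets 2-fold higher and 50 had a set with the opposite sign. Of 215 with a set 2-fold lower, 30 had all sets lower by that size and 80 had one with the opposite sign. The direction also went with probe design and level. The 431 probe sets whose suffix (_r) marks relaxed design rules had a median change of 0.79, and 31.6% were 2-fold higher, against -0.07 and 4.31% of the 6640 sets without a suffix. With probe sets ordered by level in 5 equal parts, the median change went from 0.22 in the dimmest to -0.35 in the brightest. The part of design and level in the changes below was not tested, and genes measured by an _r set are named as such. Some genes also had dim probe sets under the filter. Had these been required to pass too, 20 named genes would have lost their call: Cyp17a1, Hsd3b1, Sry, Erbb3, Nanog, Zbtb16, Dnmt3a, Lefty1, Bub1, Snrpb2, Emcn, Cav1, Eln, C1qb, Chga, Krt17, Dpep3, Akap8, Ddx3x and Mep1b. The dim sets of Erbb3 and Snrpb2 went against the fitted ones, and a dim set of Emcn, Cav1, C1qb, Lefty1 and Zbtb16 moved little.

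**Figure D1:**
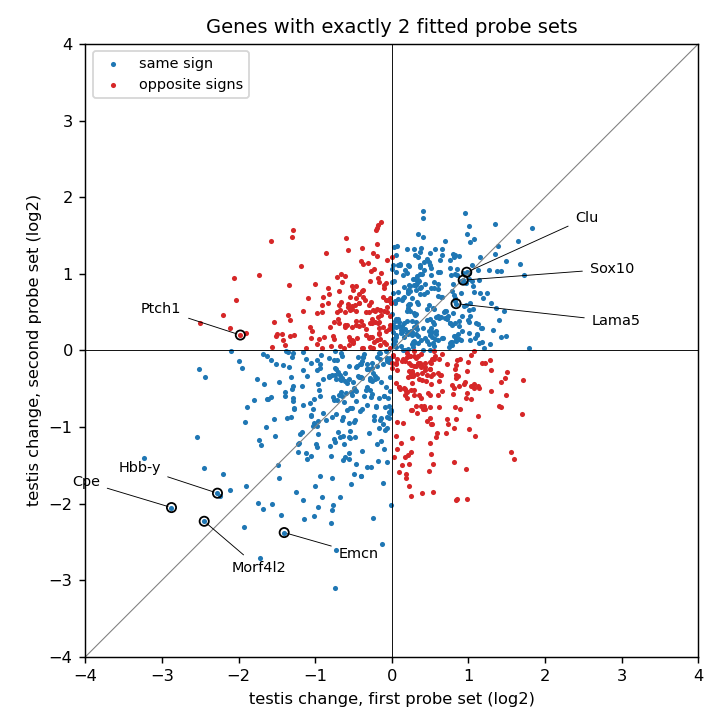
Change in the testis (E14.5 minus E12.5, log2, mean of WT and KO) on the first and second probe set of the 901 genes with exactly 2 fitted probe sets, 1 point per gene. Blue points (551 genes) have the same sign on both sets and red points (350 genes) opposite signs; 8 genes named in the text are circled, of which only Ptch1 has opposite signs.

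Of the genes of androgen synthesis, 2 had the largest rises of all genes. Cyp17a1, which makes androgens from progestins, had levels of 8.06 (WT) and 7.99 (KO) at E12.5 and 11.77 and 11.19 at E14.5, so both E14.5 arrays lay far above both E12.5 arrays. Its stage difference of 3.71 in the WT and 3.20 in the KO was the largest shared rise of all 6211 genes, at 3.45 ± 0.54 (adjusted p = 0.0025), a 11.0-fold change. Hsd3b1, another enzyme of the pathway, was at 6.91 and 7.26 at E12.5 and at 9.95 and 9.18 at E14.5. It ranked second, at 2.44 ± 0.38 (adjusted p = 0.0024), with the WT level at E12.5 just under the floor of 6.99 that was used for low values. Cyp11a1, which starts steroid synthesis, went from 7.25 and 8.00 to 10.29 and 9.57, a change of 2.30 ± 0.65 (adjusted p = 0.022) and rank 19. These SEs also take in the ovary pairs, where Cyp17a1 differed by 3.04 in the WT and 0.69 in the KO. In a fit of the 4 testis arrays alone the SE was 0.11 for Cyp17a1, 0.17 for Hsd3b1 and 0.23 for Cyp11a1. In whole gonads, more Leydig cells and more RNA per cell cannot be told apart.

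A second probe set of Cyp17a1 and of Hsd3b1 stayed below the filter but moved the same way. For Cyp17a1 it went from 3.86 on both E12.5 arrays to 5.45 (WT) and 5.02 (KO), and for Hsd3b1 from 4.86 and 5.05 to 7.06 and 6.27. When any 1 of the 4 testis arrays was left out, a single pair of testis arrays remained. The spread in such a fit comes from the ovary arrays alone, so only the size of the change is given, here and below. It was 3.20 to 3.71 for Cyp17a1, 1.92 to 2.97 for Hsd3b1 and 1.57 to 3.04 for Cyp11a1. With values as deposited Cyp11a1 did not pass (1.52, adjusted p = 0.059).

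Cited1, a transcriptional co-regulator named here as a marker of the same cells, rose alike in both genotypes. Its levels were 7.77 (WT) and 7.54 (KO) at E12.5 and 9.61 and 9.42 at E14.5, a change of 1.86 ± 0.10 (adjusted p = 6.9e-05, rank 6). Without any 1 testis array it was 1.84 to 1.88. It rose in the ovary as well, by 1.23 ± 0.10, and the testis rise was larger by 0.63 (adjusted p = 0.012). In the KO ovary alone Cited1 differed by 1.06.

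Star and Scarb1, which handle the cholesterol that feeds the pathway, did not pass. Star went from 7.04 to 8.78 in the WT but from 7.94 to 8.28 in the KO (1.04 ± 0.49, adjusted p = 0.104), although it passed in the fit of the 4 testis arrays alone and without the WT ovary array of E14.5, as Scarb1 did. A second set of Star, under the filter, rose alike in both genotypes, from 5.44 (WT) and 5.35 (KO) to 6.42 and 6.38. Scarb1, a receptor that takes up cholesterol from lipoproteins, differed by 1.01 in the WT and 0.09 in the KO. Insl3, the Leydig hormone that guides testis descent, rose from 6.17 and 6.0 to 7.56 and 7.55. Its E12.5 levels were under the floor, so that its change of 0.57 ± 0.03 (adjusted p = 7.5e-05) depends on the floor, and it was measured by an _r set. Cyb5a, a helper of Cyp17a1, fell from 9.86 and 9.82 to 8.63 and 8.76 (-1.14 ± 0.08, adjusted p = 0.00017).

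Of the 25 genes of the Leydig and steroidogenic list, 17 were on the array and 15 were fitted. Of these, 5 were called higher (33.3%, beside 34.6% of all genes), 2 lower (13.3%, beside 38.5%) and 8 not called, and the probe sets of 4 had opposite signs, which holds for Fdx1, Gata6, Pdgfra and Vcam1. The 4 markers were 2-fold higher in both genotypes, 26.7% of the list beside 4.46% of all genes. The median change was 0.57 in the testis and 0.06 in the ovary, beside -0.05 and -0.03 over all genes. The testis median was -0.16 with values as deposited, 0.34 without either WT testis array and 0.75 without either KO one. The list and these markers were chosen with results of these arrays known, so this count is no independent evidence.

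**Figure D2:**
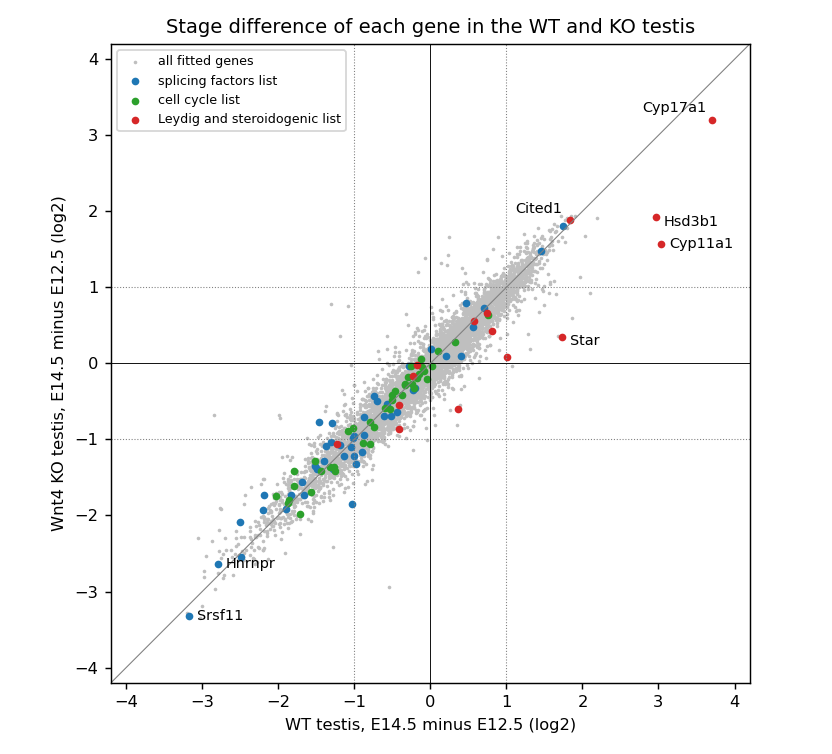
Stage difference (E14.5 minus E12.5, log2) of each of the 6211 genes in the WT testis (x axis) and the Wnt4 KO testis (y axis), with 3 gene lists coloured; dotted lines mark 2-fold. Cyp17a1 lies farthest to the upper right at 3.71 and 3.20, and Hsd3b1, Cyp11a1 and Star lie below the diagonal, with a smaller difference in the KO.

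In the ovary arrays the steroidogenic genes split by genotype. Cyp17a1 went from 7.32 to 10.36 in the WT ovary and from 7.44 to 8.13 in the KO ovary, and Hsd3b1 from 6.34 to 8.89 and from 6.75 to 7.59. Cyp11a1 went from 6.79 to 9.42 in the WT ovary and was at 7.93 and 7.87 in the KO ovary. The WT ovary array of E14.5 is the one with Y-linked signal. Over all 4 ovary arrays the testis change was not larger by the test: the difference was 1.59 for Cyp17a1 (adjusted p = 0.12), 1.19 for Hsd3b1 (0.10) and 1.11 for Cyp11a1 (0.32).

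**Figure D3:**
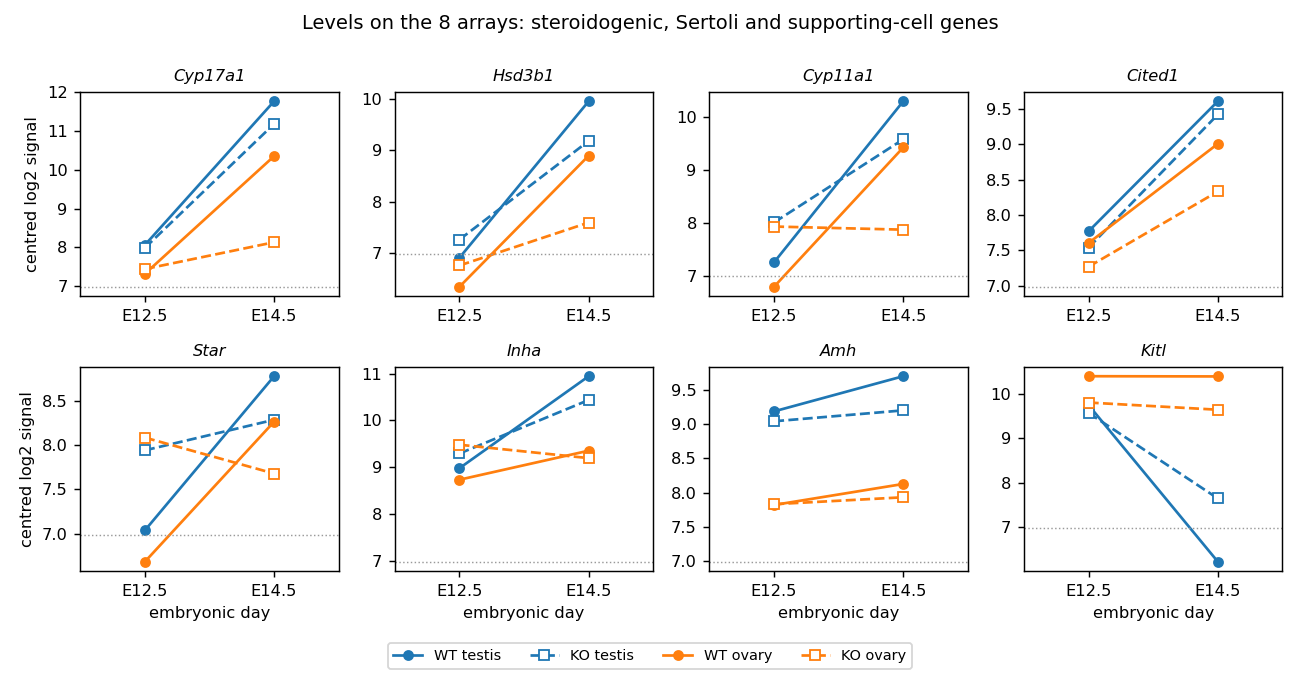
Centred log2 level of 8 genes on all 8 arrays, with lines joining E12.5 to E14.5 for the WT (solid) and KO (dashed) testis (blue) and ovary (orange); 1 array per point, and the dotted line is the floor of 6.99. Cyp17a1, Hsd3b1 and Inha are highest in the E14.5 testes, Kitl is lowest there, and the WT ovary rises with the testes for Cyp17a1, Hsd3b1 and Cyp11a1.

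The adrenal gland lies next to the gonad and also makes steroids. Of the 16 genes in the adrenal cortex and chromaffin list, 10 were on the array, 8 were fitted, and 5 (62.5%) were called higher and 1 (12.5%) lower, beside 34.6% and 38.5% of all genes. Cyp21a1, the adrenal enzyme that makes corticosteroids, went from 8.75 and 8.95 to 9.42 and 9.30 (0.51 ± 0.09, adjusted p = 0.0042), with the opposite sign in values as deposited (-0.27). Among chromaffin genes, Hand2 rose by 1.19 ± 0.04, from levels below the floor, and Chga by 1.17 ± 0.08. Others under the filter did not all rise. Chgb went from 6.19 (WT) and 8.40 (KO) to 4.92 and 4.93 on its brighter set, and from 2.39 and 2.73 to 3.56 and 3.38 on its dimmer one. Ddc went from 6.93 and 7.11 to 6.28 and 6.30. The mean level over all 13 probe sets of the list was 6.89 (WT) and 7.26 (KO) at E12.5 and 7.09 and 7.08 at E14.5, so the genotypes went different ways. Mc2r, the receptor for ACTH, was at 6.99 and 7.47 at E12.5 and at 6.35 and 6.24 at E14.5. The part of adrenal tissue in the steroidogenic rise was not tested.

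Sertoli cell genes went both ways. Inha, the alpha subunit of the hormone inhibin, rose from 8.98 (WT) and 9.30 (KO) to 10.95 and 10.44 (1.55 ± 0.28, adjusted p = 0.0042). Hsd17b1, a steroid enzyme of fetal Sertoli cells, rose from 6.99 and 6.85 to 8.45 and 7.97 (1.22 ± 0.14, adjusted p = 0.00075), and by 0.98 without either WT testis array. Fshr, the receptor for follicle-stimulating hormone, went from 7.85 and 7.77 to 8.82 and 8.77 (0.99 ± 0.08, adjusted p = 2e-04). In all 3 genes both E14.5 arrays lay above both E12.5 arrays. Sox10, a relative of Sox9, rose by 0.92 ± 0.09 with its 2 probe sets at 0.92 and 0.93, and the rise of Inha, Hsd17b1, Fshr and Sox10 was larger than in the ovary (adjusted p = 0.0014 to 0.027). With values as deposited Sox10 did not pass (0.14).

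Amh, which removes the female duct, was at 9.19 and 9.04 at E12.5 and at 9.70 and 9.20 at E14.5 (0.34 ± 0.11, adjusted p = 0.036), and Hsd17b3, the enzyme that completes testosterone, rose by 0.54 ± 0.17 (adjusted p = 0.03) from levels under the floor. Hsd17b3 was at 0.17 without either WT testis array and at 0.91 without either KO one, at 1.05 with no floor, and did not pass with no filter on low values (adjusted p = 0.172). Clu, a secreted chaperone, rose by 1.02 ± 0.37 with its sets at 0.98 and 1.02 and an adjusted p of 0.04998, almost at the threshold, and by 1.68 in the WT against 0.36 in the KO. Without any 1 testis array the change was 0.16 to 0.52 for Amh, 0.36 to 1.68 for Clu and 1.14 to 1.96 for Inha. Amh had the opposite sign with values as deposited (-0.44), and Clu did not pass (0.24).

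Other Sertoli genes fell. Wt1, a transcription factor of the early gonad and of Sertoli cells, went from 10.04 and 9.88 to 8.41 and 8.90 (-1.30 ± 0.16, adjusted p = 0.00086). Inhbb, the beta B subunit of inhibins and activins, fell by 1.23 ± 0.17, Vnn1, a pantetheine-cleaving enzyme, by 1.03 ± 0.09, Erbb3 by 1.01 ± 0.10 and Aard by 1.08 ± 0.33. A second set of Erbb3, under the filter, rose from 6.46 (WT) and 6.22 (KO) to 6.64 and 6.66, so its sets disagree. Without any 1 testis array Inhbb was at -1.24 to -1.22, Erbb3 at -1.05 to -0.98 and Aard at -1.39 to -0.77. After quantile normalization Aard was at -0.82 (adjusted p = 0.067). Vnn1 and Wt1 also fell in the ovary, by 0.67 and 0.66. Probe sets of Dhh, the Sertoli signal to Leydig cells, and of Ptgds, a prostaglandin synthase, disagreed.

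Of the 32 genes of the Sertoli list, 26 were on the array and 25 were fitted, with 10 called higher (40%, beside 34.6% of all genes), 9 lower (36%, beside 38.5%) and 6 not called, and 1 was 2-fold higher and 1 lower. The median change was -0.01, beside -0.05 over all genes, and its sign was not stable. It was 0.03 without either WT testis array, 0.22 without either KO one, 0.27 after quantile normalization and -0.79 with values as deposited.

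Germ cell genes went both ways, and 3 pluripotency genes and Kit were among those that fell. Dppa5a, a marker of pluripotent cells, was at 10.47 (WT) and 10.46 (KO) at E12.5 and at 8.90 and 8.91 at E14.5 (-1.56 ± 0.10, adjusted p = 9.8e-05). Nanog, a core pluripotency factor, went from 8.12 and 7.94 to 6.21 and 5.99 (-1.04 ± 0.13). Kit, the receptor that early germ cells need, went from 8.55 and 8.37 to 6.23 and 6.22 (-1.48 ± 0.11), and Sox2, measured by an _r set, from 8.52 and 8.25 to 5.92 and 5.99 (-1.40 ± 0.09). For Nanog, Kit and Sox2 both E14.5 arrays lay under the floor, so the value given is limited by the floor. Without any 1 testis array Nanog was at -1.13 to -0.95.

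Ddx4, an RNA helicase of all germ cells, rose from 7.97 and 7.88 to 8.88 and 8.83 (0.93 ± 0.08, adjusted p = 0.00028), but did not pass with values as deposited (0.15, adjusted p = 0.111). Tex19.1, which guards germ cells against transposons, rose by 1.23 ± 0.11, Alpl, the alkaline phosphatase used to stain early germ cells, by 1.36 ± 0.16, and Zfp42 by 0.84 ± 0.06, the last from just under the floor. With values as deposited Zfp42 did not pass (0.13). Tex19.1 was at 1.18 without either WT testis array, and Alpl at 1.09 without the WT array of E12.5. In the ovary Ddx4 rose more, by 1.57 ± 0.08 (difference -0.63, adjusted p = 0.0058), Kit fell by 1.23 and Nanog by 1.11. The fall of Dppa5a was larger in the testis (difference -1.20, adjusted p = 0.0012).

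Among male germ cell genes, Zbtb16, a factor of germ line stem cells, went from 7.05 and 6.97 to 8.18 and 8.08 (1.11 ± 0.05, adjusted p = 5.6e-05). Dnmt3a, the methyltransferase that marks DNA in male germ cells, rose from 8.47 and 8.34 to 8.94 and 8.65 in the testis (0.39 ± 0.10, adjusted p = 0.014) while it fell from 8.32 and 8.09 to 7.84 and 7.32 in the ovary. Lefty1, an inhibitor of Nodal, rose by 0.20 ± 0.07 (adjusted p = 0.043), and Cdkn1c, a brake on cell division, fell from 11.99 and 12.26 to 10.91 and 11.25 (-1.05 ± 0.06). Dnmt3a and Lefty1 had opposite signs with values as deposited (-0.39 and -0.58). Without any 1 testis array they were at 0.31 to 0.47 and at 0.13 to 0.27.

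As lists, germ cell pluripotency had 18 of 22 genes on the array fitted, with 5 called higher (27.8%), 7 lower (38.9%) and 6 not called, shares that lay below and at those of all genes (34.6% and 38.5%). Its median was -0.14, beside -0.13 in the ovary and -0.05 over all genes, and 0.06 for genes above the floor on all 4 testis arrays. Pou5f1, Dppa3 and Dazl are not among the named genes counted elsewhere. Pou5f1 was at -0.64 ± 0.11 (adjusted p = 0.0038) on its fitted set. Its _r set under the filter rose in both genotypes, in the KO from 5.15 to 6.85. Under the filter Tdgf1 also rose, while sets of Nanog and Nr5a2 fell. Dppa3 (-0.29) and, in the general germ cell list, Dazl (0.16) did not pass. The general germ cell list had 7 fitted, 2 called higher and 2 lower, and the male germ cell list 6 of 11, with 3 higher and 2 lower. Of 9 meiosis genes on the array, 3 were fitted in the testis, and Stra8, Sycp1 and Dmc1 were under the filter.

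Embryonic globins fell together while 1 adult globin did not on centred values. Hba-x, the embryonic alpha-type globin whose promoter is printed above, went from 13.84 (WT) and 13.68 (KO) to 11.47 and 12.06 (-2.0 ± 0.21, adjusted p = 0.00055). Hbb-y, an embryonic beta-type globin, went from 14.23 and 14.22 to 12.03 and 12.70 (-1.86 ± 0.17), with -2.28 on its other probe set. Hbb-bh1, another embryonic beta-type globin, went from 10.36 and 10.18 to 9.03 and 9.10 (-1.20 ± 0.08). In each the E14.5 arrays lay below the E12.5 arrays. Hba-a1, an adult alpha globin named after its values were seen, stayed between 14.19 and 14.32 on the 4 arrays (0.06 ± 0.07, adjusted p = 0.43). Its change was -0.72 with values as deposited and -0.24 after quantile normalization.

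In the ovary Hba-x fell by 1.65 ± 0.21, and its fall did not differ between the sexes by the test (-0.35, adjusted p = 0.33), while those of Hbb-y (-1.34) and Hbb-bh1 (-0.80) were larger in the testis. Slc4a1, the anion exchanger of red cells, fell from 8.48 and 8.42 to 7.08 and 7.03 (-1.40 ± 0.06). Of the 13 fitted erythroid genes, 3 were called higher (23.1%, beside 34.6% of all genes) and 6 lower (46.2%, beside 38.5%), 4 of them 2-fold lower (30.8%, beside 11%). Red cells are no part of the gonad proper, and blood content and switching of globin genes within red cells cannot be told apart.

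**Figure D4:**
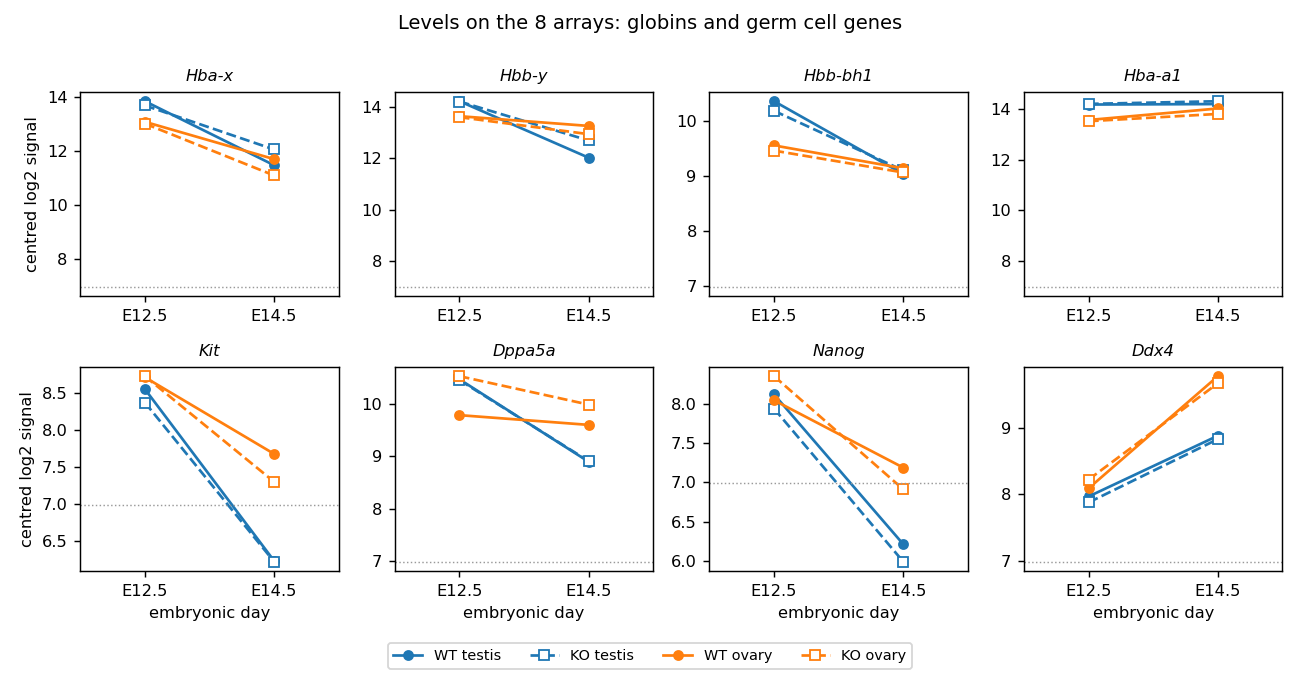
Centred log2 level of 4 globin and 4 germ cell genes on all 8 arrays, drawn as in the plot of steroidogenic genes; 1 array per point, dotted line at the floor of 6.99. The embryonic globins Hba-x, Hbb-y and Hbb-bh1 and the pluripotency genes fall on the testis arrays, while Hba-a1 stays near 14.2 there and Ddx4 rises on all pairs.

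Of the genes of the tissue around the cords, 4 that rose in the testis rose in the ovary too. Acta2, the smooth muscle actin of peritubular myoid cells, went from 8.17 and 8.65 to 10.26 and 9.58 (1.51 ± 0.31, adjusted p = 0.0069), and by 1.25 in the ovary. Tagln, another smooth muscle protein, rose by 1.28 ± 0.18, beside 1.49 in the ovary, and the matrix genes Eln (elastin) and Dcn (decorin) by 1.22 ± 0.13 and 0.84 ± 0.07, beside 1.31 and 1.17. In the KO ovary alone Acta2 differed by 0.91, Tagln by 1.38, Eln by 1.24 and Dcn by 1.29. Acta2 was at 0.92 without either WT testis array, and neither Acta2 (0.73) nor Dcn (0.065, adjusted p = 0.451) passed with values as deposited. Of the 15 fitted myoid and smooth muscle genes, 7 (46.7%) were called higher and 5 (33.3%) lower, and of 24 interstitial matrix genes 8 (33.3%) and 6 (25%), beside 34.6% and 38.5% of all genes. The list medians were 0.07 and 0.16, beside -0.05 over all genes, and the genes called lower are not described here.

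Within the basement membrane of the cords, Lama5, a laminin chain, rose by 0.61 ± 0.10 with 0.84 on its other set, and Col4a4 rose from 7.11 and 6.94 to 8.40 and 8.29 (1.30 ± 0.04). Col4a1 fell by 1.04 ± 0.15 and Col15a1 by 1.30 ± 0.14. Of 23 fitted genes of this list, 4 (17.4%) were called higher and 7 (30.4%) lower, below the shares over all genes, and the sets of 5 disagreed. Lama5 had the opposite sign with values as deposited (-0.17).

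Of 20 fitted endothelial genes, 5 (25%) were called higher and 9 (45%) lower, beside 34.6% and 38.5% of all genes. By the test of the difference the testis change was below that of the ovary for 6 and above it for 4. Described here are 3 of the 6 and none of the 4. Cdh5, the cadherin that joins endothelial cells, went from 9.06 and 9.46 to 7.60 and 7.63 (-1.65 ± 0.11), against 0.20 in the ovary (difference -1.84, adjusted p = 0.00057). Emcn, a sialomucin of vessels, was at -1.40 ± 0.14, and at -2.38 on its other fitted set. Cav1, of membrane caveolae, went from 8.73 and 8.99 to 6.60 and 6.90, under the floor (-1.87 ± 0.13). Each of these genes also had a set under the filter that moved little. On the 4 testis arrays that of Emcn stayed between 5.85 and 6.14, and that of Cav1 between 6.02 and 6.23. Without either WT testis array Emcn was at -1.26.

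Of 22 macrophage genes on the array 13 were fitted. Of these, 8 (61.5%) were called higher and 2 (15.4%) lower, beside 34.6% and 38.5% of all genes, and those named here are among the higher ones. The median was 0.38, beside 0.07 in the ovary, but -0.21 with values as deposited and 0 with no filter on low values. The complement genes C1qa and C1qb rose by 0.84 ± 0.09 and 0.81 ± 0.09, the chemokine receptor gene Cx3cr1 by 0.73 ± 0.07 and Cd14, a receptor for bacterial products, by 0.99 ± 0.09. Sets under the filter went both ways. Mrc1 went from 6.49 (WT) and 6.61 (KO) to 5.07 and 4.93 and Ctss from 6.69 and 6.97 to 6.13 and 6.04, while Itgam went from 5.74 and 5.65 to 6.52 and 6.42. The mean over all 32 probe sets of the list was 6.38 (WT) and 6.45 (KO) at E12.5 and 6.76 and 6.69 at E14.5. With values as deposited C1qa, C1qb and Cd14 did not pass, and Cx3cr1 was at -0.045. C1qa was at 0.74 without either WT testis array, and C1qb at 0.72 without the WT array of E12.5.

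Kitl, the ligand of Kit made by supporting cells, went from 9.74 (WT) and 9.57 (KO) to 6.23 and 7.65 in the testis (-2.34 ± 0.20, adjusted p = 0.00026) and stayed between 9.64 and 10.40 in the ovary (difference -2.26, adjusted p = 0.0016). Id2, a target of BMP signals, fell from 10.92 and 10.80 to 8.15 and 8.90 (-2.33 ± 0.20). Smad4, the shared mediator of activin, BMP and TGF-beta signals, fell by 1.96 ± 0.07 and the inhibitory Smad7 by 1.40 ± 0.09, while Inhba, the beta A subunit of activin, rose by 1.13 ± 0.16. Of the 31 fitted genes of these pathways 7 (22.6%) were called higher and 13 (41.9%) lower, beside 34.6% and 38.5% of all genes. Without any 1 testis array Inhba was at 1.01 to 1.25.

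Of 9 fitted genes of the hedgehog pathway, by which Sertoli cells instruct Leydig cells, 2 (22.2%) were called higher and 3 (33.3%) lower, both below the shares over all genes (34.6% and 38.5%). Smo, the signal transducer, fell by 0.47 ± 0.07, the co-receptor gene Gas1 by 0.67 ± 0.10 and the transcription factor gene Gli3 by 0.61 ± 0.06, to levels under the floor. These are the 3 called lower, and the 2 called higher are not described here. The testis minus ovary difference was -0.74 for Smo and -0.88 for Gas1 (adjusted p = 0.002 and 0.0037), and the sets of Ptch1, the receptor and target gene, disagreed. After quantile normalization Smo was at -0.29 and Gas1 at -0.36.

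Wnt4, the gene removed in the KO, was at 9.26 (WT) and 8.34 (KO) at E12.5 and at 9.42 and 9.19 at E14.5 (0.50 ± 0.19, adjusted p = 0.06), so the KO testis lay below the WT at both stages. Whether the probe set lies in the deleted part was not known here. Its change was above that in the ovary by 1.01 (adjusted p = 0.023), where it went from 10.19 to 9.45 in the WT.

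Genes of the cell cycle fell together. Mcm4, part of the helicase that opens DNA for replication, went from 10.32 (WT) and 10.37 (KO) to 8.47 and 8.57 (-1.83 ± 0.06, adjusted p = 4.4e-05). Cdc6, which loads that helicase, fell by 1.85 ± 0.09, the G1 cyclin gene Ccnd2 by 1.89 ± 0.13, the spindle checkpoint gene Mad2l1 by 1.70 ± 0.09 and Birc5, of the dividing chromosome complex, by 1.63 ± 0.09. In the ovary these 5 lay between -0.57 and -0.02, and each difference passed (adjusted p = 0.00029 to 0.0011). Bub1, another checkpoint gene, fell from 8.85 and 8.87 to 6.52 and 7.03 in the testis and was at 8.69 and 8.68, then 9.44 and 9.45, in the ovary.

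Of the 40 fitted cell cycle genes 2 (5%) were called higher, 26 (65%) lower and 12 not called, beside 34.6% and 38.5% of all genes, and 9 (22.5%) were 2-fold lower beside 11% of all genes. The median was -0.53 in the testis and -0.19 in the ovary. Among the inhibitors of the cycle, Cdkn2c rose by 1.06 ± 0.05, from under the floor, and Rbl1, a relative of the retinoblastoma protein, fell by 1.33 ± 0.06. That list had 4 called higher (30.8%) and 7 lower (53.8%) of 13.

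Most splicing factor genes fell. Srsf11, one of them, fell more than any other of the 6211 genes, from 10.53 and 10.63 to 7.35 and 7.31 (-3.25 ± 0.07, adjusted p = 4.4e-05). Hnrnpr and Hnrnpk, which bind nascent RNA, were lower, at -2.71 ± 0.07 and -2.29 ± 0.11. Hnrnpc was at -1.78 ± 0.08, with E14.5 levels under the floor, and Snrpe, a core protein of the spliceosome, at -2.06 ± 0.10. Of 46 fitted splicing factor genes 36 (78.3%) were called lower and 3 (6.52%) higher, and 15 (32.6%) were 2-fold lower beside 11% of all genes. The median was -1.06 in the testis and -0.21 in the ovary. Snrpb2 went the other way, at 1.78 ± 0.08, on an _r set. Its second set, under the filter, fell from 6.53 (WT) and 6.66 (KO) to 5.43 and 5.62, so its sets disagree.

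The direction went with level here too. Of the brightest of the 5 equal parts of probe sets, 17.6% were 2-fold lower and 3.1% higher, and of the dimmest 0.668% and 6.26%. Genes called 2-fold lower had a median mean level of 8.92 and those 2-fold higher of 7.90, beside 8.52 over all genes. Hypoxia and glycolysis genes had the next most negative median, -0.65, with 15 of 21 (71.4%) called lower, and MHC and interferon genes the most positive, 0.64, with 15 of 23 (65.2%) called higher.

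**Figure D5:**
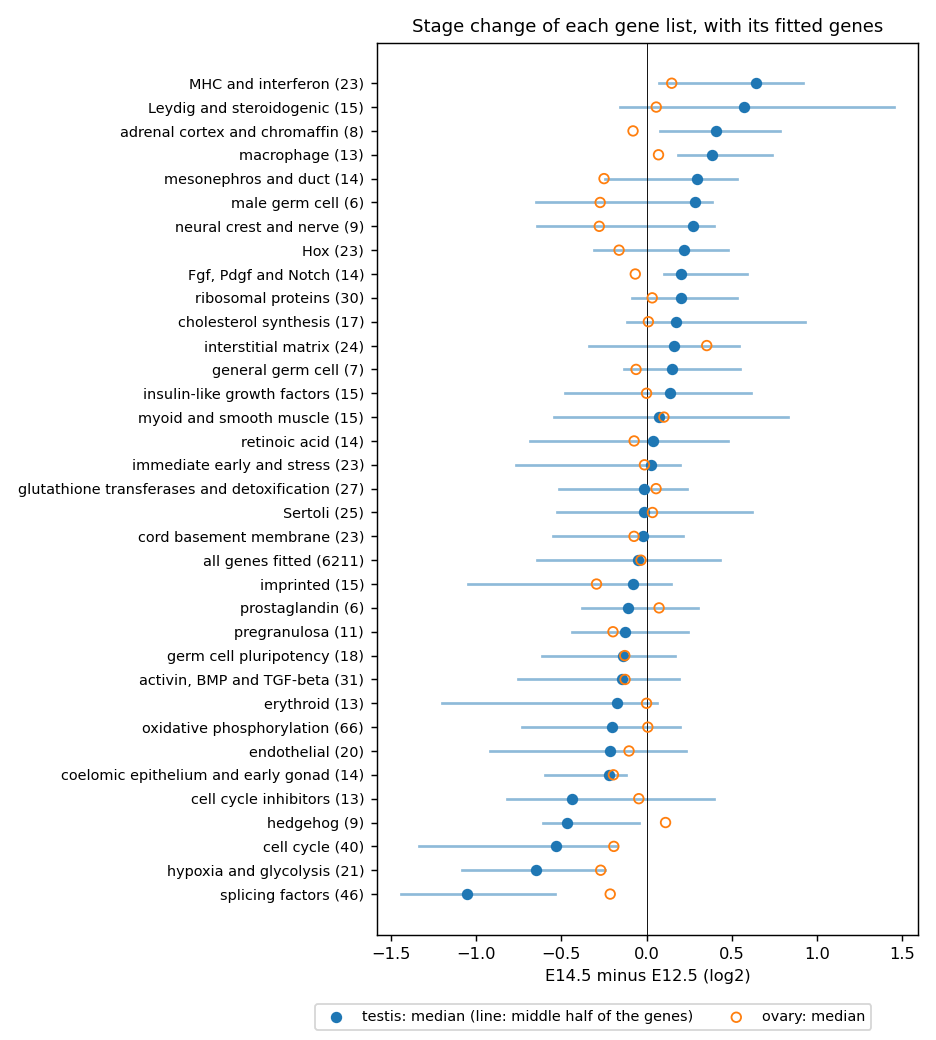
Median stage change (E14.5 minus E12.5, log2) of each gene list with at least 5 fitted genes in the testis (blue, with a line from the lower to the upper quartile of its genes) and in the ovary (orange circles), with the number of fitted genes in brackets. Splicing factor genes lie lowest in the testis at -1.06 and Leydig genes near the top at 0.57, while ovary medians stay closer to 0.

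Genes whose fitted probe sets all moved by a large amount give the changes that rest on more than 1 measurement. Some had further sets on the array under the filter: 2 of 3 were fitted for Krt17, Dpep3 and Ddx3x, and 2 of 5 for Akap8. Of the 1040 genes with several sets, 207 were called higher and 216 lower, and 11 and 30 were 2-fold. Among the rising ones with the largest shared change were Krt17, a keratin, with sets at 1.60 and 1.83, and Dpep3, a dipeptidase of germ cells, at 1.43 and 1.65. Bcan, a proteoglycan, was at 1.36 and 1.39, Speg, a muscle kinase, at 1.26 and 1.35, and Junb, an immediate early transcription factor, at 1.17 and 1.49. None of these 5 rose in the ovary, where their changes lay between -0.04 and 0.16. Krt17, Dpep3 and Junb took their value from an _r set. Of the 12 largest shared rises, Prp2, Prss32, Prrc2a, Inpp5d, Dnajb13, Mcpt1 and Myh7 are not described.

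Among the falling ones the largest shared change was that of Morf4l2, a chromatin protein, which went from 12.44 and 12.60 to 10.11 and 10.04, with sets at -2.45 and -2.23. Cpe, a processor of prohormones, was at -2.88 and -2.05, Akap8, an anchor of protein kinase A in the nucleus, at -2.31 and -1.92, and Ddx3x, an RNA helicase, at -2.11 and -1.83. Hif1a, the oxygen-sensing transcription factor, was at -1.99 and -1.75 and Sox11, a factor of immature cells, at -2.45 and -1.54. Sox11 also fell in the ovary, by 0.91 ± 0.10, while Morf4l2, Cpe, Akap8, Ddx3x and Hif1a lay between -0.30 and 0.15 there. Of the 12 largest shared falls, Mob1a, Zranb2, Tram1, Tfdp1 and Ube2d3 are not described.

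Of genes with a single fitted set, Rrad, a small GTPase of muscle, went from 6.84 and 6.68 to 9.17 and 8.90 (2.05 ± 0.12) and had the next largest shared rise after Cyp17a1 and Hsd3b1, from levels under the floor. Ephx1, a detoxifying epoxide hydrolase, rose from 7.18 and 7.13 to 9.21 and 8.81 (1.86 ± 0.15), Mep1b, a protease measured by an _r set, by 1.92 ± 0.07, and Sprr2b, of the squamous epithelium, on a set shared within its family, by 1.89 ± 0.07. Among falls, Wsb1 (-3.19 ± 0.09) and Lrrc58 (-2.90 ± 0.07) followed Srsf11, then Nr2f1, an orphan nuclear receptor (-2.89 ± 0.07). Eif4a2, a translation initiation factor, went from 11.88 and 11.96 to 9.15 and 9.14 while the 4 ovary arrays lay between 11.37 and 11.49. Also among the 12 largest of each direction, but not described, were Sftpb, Naglu, Rsph1 and Gh, which rose. Rars2, Smc2, Mapk6, Rab9, Bach1 and Zfp644, which fell, are not described either.

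Compared with the ovary over the same days, the testis change was more positive for 1969 genes (31.7%) and more negative for 1961 (31.6%), by the test of the difference, and with values as deposited for 626 and 3439. In the ovary 27 genes (0.435%) were 2-fold changed in both genotypes, 17 higher and 10 lower. Both testis pairs shared the direction of 12 of the 17 and of 8 of the 10, while over all genes 41.5% were higher and 44.6% lower in both testis pairs. The part of the Y-linked signal on the WT ovary array of E14.5 in these shared directions was not tested. In 5 genes the change was 2-fold in all 4 pairs of both sexes. Cited1 was higher, and Hba-x, Kit, Hmga2 and Foxd1 were lower, the last 2 of these named after their values were seen. Hmga2, a chromatin protein of immature cells, went from 12.09 (WT) and 11.84 (KO) to 9.04 and 9.55 in the testis and from 11.80 and 11.54 to 10.41 and 9.97 in the ovary. Foxd1, a transcription factor of stromal cells, went from 8.27 and 9.40 to 4.80 and 5.10 in the testis and from 8.08 and 8.84 to 6.28 and 6.76 in the ovary. Without either KO testis array its testis change was -1.28.

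Sry, the Y-linked gene that sets off testis formation and is known to be shut off soon after, was at 6.55 and 6.46 at E12.5 and at 8.03 and 8.02 at E14.5 (1.04 ± 0.04), on a probe set shared with other transcripts (_s), from levels under the floor. On the ovary arrays, which should carry none, the same set lay between 6.54 and 6.82, so at E12.5 the testis was not above them.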

How the data were processed

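The deposited table held log2 values of 12488 probe sets, made by the authors with MAS5 per the submitters' processing notes; its version and scaling were not known here. In the column of the KO testis at E12.5, 14 cells over 20 held date numbers and were set to missing. Arrays were then centred on their medians. For differences, values below the 40th percentile of all values (6.99) were set to it; levels are printed as measured. Probe sets above this floor on at least 2 testis arrays were fitted (8230), leaving out 66 controls. Of all probe sets, 10855 had 1 gene symbol, 396 several and 1237 none; 10839 were found in RefSeq, with 0 symbols changed.

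The model in limma 3.58.1 (R 4.3.3) had sex, genotype within sex and stage within sex on all 8 arrays, with moderated variances and an intensity trend. The tests are two-sided with Benjamini-Hochberg adjustment over the 8230 probe sets at 0.05. The 2 residual degrees of freedom come from genotype differences that change with stage, to which moderation added 2.98, so p-values measure only that spread. With 1 array per group the number of arrays limits the precision. Of the probe sets, 6605 passed and 6732 had an unadjusted p under 0.05. The code was tested on simulated data.

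The members and gene lists were chosen with earlier results of these data known. Named genes were drawn from the 4 given markers, Wnt4 and sex genes. Others came from the 12 largest shared rises and falls among called genes with several probe sets and with 1. Up to 6 genes per list, and any fitted gene of the Leydig, Sertoli, male germ cell, hedgehog and basement membrane lists, could also be named. Not every gene that met these rules is described. Where several probe sets were fitted, the brightest gave the printed values. Alternatives were the testis arrays alone, other floors and filters, no centring, quantile normalization, no trend, other rules over probe sets, no genotype term and each testis array left out.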

Additional observations from a re-analysis of the deposited data

Results flagged for a closer look

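The stage change differed between testis and ovary by the test of the difference in 1969 genes, where the testis was more positive, and in 1961, where it was more negative. Among the named genes, both testis pairs went one way and both ovary pairs the other, with the difference itself passing (limma, adjusted p under 0.05), in 13. The testis minus ovary difference was positive for Sprr2b (2.31), Cd14 (1.15), Dnmt3a (1.02), Wnt4 (1.01) and Cyp21a1 (0.70). It was negative for Bub1 (-2.61), Cav1 (-2.39), Cpe (-2.21), Cdh5 (-1.84), Aard (-1.84), Col4a1 (-1.19), Gas1 (-0.88) and Smo (-0.74). Both E14.5 testis arrays enter each of these differences, so a change of the testis and a gap of those arrays cannot be told apart. The WT ovary array of E14.5, which carried Y-linked signal, enters each of them too, and Aard went from 8.44 to 9.87 in the WT ovary and from 8.41 to 8.50 in the KO ovary.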

How the results depend on the processing

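With values as deposited, where the median probe set fell by 0.71 on the log2 scale, 451 genes were called higher and 4661 lower, 7 were 2-fold higher and 1869 lower in both genotypes, and 626 and 3439 differed from the ovary. The median change was then -0.16 for Leydig, -1.29 for cell cycle and -1.81 for splicing factor genes. The sign turned for Scarb1 (-0.23), Wnt4 (-0.27), Amh (-0.44), Dnmt3a (-0.39), Lefty1 (-0.58), Hba-a1 (-0.72, and -0.24 after quantile normalization), Cx3cr1 (-0.045), Cyp21a1 (-0.27) and Lama5 (-0.17), and a further 10 of 100 named genes lost their call. Under the other settings, those below included, each count of genes stayed within 1.5 times its value. Quantile normalization raised the share of 2-fold genes that were higher from 28.9% to 38.9%.

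The cell cycle median was -0.48 with a stricter or no filter, -0.35 after quantile normalization and -0.42 without suffixed probe sets. The splicing median was -1.04 with a lower floor, with no filter and without suffixed probe sets, -1.03 with a stricter filter and -0.87 after quantile normalization. Leaving out each testis array in turn gave medians of 0.34 to 0.75 (Leydig), -0.53 to -0.52 (cell cycle) and -1.01 to -1.0 (splicing). Calls of these fits are not given, because their spread comes from the ovary arrays alone. With no filter 27 of 101 named genes lost their call, and with all probe sets on the array required 20 did. A lower floor ended the calls of Erbb3, Snrpb2, C1qb and Akap8, a fit without the intensity trend that of Clu, and one without the genotype term those of Amh, Dnmt3a and Lefty1. Without the WT ovary array of E14.5, an alternative chosen after seeing the data, Lefty1 lost its call and Star, Scarb1, Wnt4 and Eif2s3y gained one. The causes of these shifts were not tested. No pairing beyond that by genotype was possible because each group had 1 array and the labels give no replicate numbers.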
